A study of Sus scrofa with 8 samples.

Results

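The nuclear-encoded genes of the mitochondrial respiratory chain and ATP synthase were described by the open chromatin around them in porcine muscle satellite cells, the stem cells of skeletal muscle. Members were the protein-coding genes on chromosomes 1 to 18 whose symbols start with NDUFA, NDUFB, NDUFC, NDUFS, NDUFV, SDHA to SDHD, UQCR, COX4 to COX8 or ATP5 in the RefSeq gene table for the Sscrofa11.1 build. This rule gave 79 of 18722 genes, and no measured value entered it. Grouped by symbol, it took 37 subunits of complex I, 4 of complex II, 2 of complex III, 8 of complex IV and 15 of complex V. A further 13 genes whose symbols share these prefixes were counted as assembly factors, ATP5S and ATP5SL among them. The table holds older ATP synthase symbols, such as ATP5B and ATP5J2, which are used here as it gives them. Open chromatin was measured by ATAC-seq, in which a transposase cuts accessible DNA, and the authors deposited 1 peak list per library. Peaks of all libraries that overlapped by 1 bp were merged into 174090 regions, of which 112022 lay within 50 kb of the nearest gene end. Of these linked regions, 253 were nearest to a member.

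The 8 libraries form 4 groups of 2, labelled CBP at 60 h, WT at 60 h, CBP at 0 h and WT at 0 h. The labels assign 60 h to differentiation and 0 h to proliferation. Every library carries the same treatment text, which names SGC-CBP30, an inhibitor of the CBP and EP300 bromodomains, at 5 uM/ml for 60 h during differentiation and for 48 h during proliferation. The labels do not say that the CBP groups were the ones given the inhibitor, so both names are used as given. The cell line is entered as C3H, the organism as pig, and the peaks carry pig coordinates. Nothing in the labels says that libraries came from separate animals or cultures, so every p-value rests on the spread among these libraries alone, and that spread may be technical. The series text speaks of 3 repeats, while 2 libraries a group were analysed here.

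Respiratory complexes I to IV pass electrons from nutrients to oxygen and pump protons across the inner mitochondrial membrane, and complex V, ATP synthase, uses the proton gradient to make ATP. Most of their subunits are encoded in the nucleus, scattered over many chromosomes, and are made in step with subunits encoded in mitochondrial DNA. Skeletal muscle uses some isoforms of its own, among them COX7A1 and the muscle form of subunit 8, and myoblasts increase their mitochondrial content as they differentiate.

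The lists held 86824 and 86004 peaks on chromosomes 1 to 18 for CBP 60 h and 84217 and 80720 for WT 60 h. They held 132271 and 118866 for CBP 0 h and 124318 and 130900 for WT 0 h. Peak number therefore moves with time, and read totals are not given in the deposited lists. Counts of opened and closed regions are therefore also given with every list reduced to its 80720 strongest peaks. The share of member regions called in both of a pair of libraries, out of those called in either, was 0.745 to 0.815 within a group. It was 0.713 to 0.76 between CBP and WT of 1 time and 0.624 to 0.689 between the times of 1 label. All 14 of the satellite cell and myoblast markers had a region within 1 kb of a gene end in at least 1 library. Of these, 10, among them PAX7, MYF5 and MYOD1, had one in all 8, a share near the 67.5% of all genes. MYOG, MYF6, VCAM1 and ITGA7 did not. In 1 or more libraries and in all 8, these counts were 5 and 4 of 6 fibroblast, 4 and 3 of 6 endothelial, 4 and 3 of 5 immune and 2 and 2 of 4 adipocyte markers. PDGFRA, CDH5, TIE1, CSF1R, FABP4 and ADIPOQ had none. The part of other cell types in the results below was not tested. A region weaker in every cell and a region lost from a share of the cells cannot be told apart in such bulk libraries.

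Nearly every respiratory chain gene had an open end in every library. A region within 1 kb of either gene end, whichever gene it was nearest to, was called in at least 1 library at 79 of 79 members, against 79.4% of all genes, and in all 8 libraries at 78 of 79 members, against 67.5% of all genes. At 67 members (84.8%, against 58.3% of all genes) 1 of the ends carried such a constant region, and at 11 (13.9%, against 9.2%) both ends did. The table gives no strand, so starts and stops of transcription are not distinguished. Of the cytosolic ribosomal protein genes, which also encode parts of a large assembly made at high rate, 83 of 88 had a constant end region. It lay at 1 end in 69.3% of the 88 and at both ends in 25%.

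Members had few linked regions. The median member had 2 linked regions, with a range of 0 to 14, against a median of 4 for all genes. The ribosomal protein genes also had a median of 2, with a range of 0 to 16. Of the 253 regions, 80 lay within 1 kb of a gene end and 173 farther out, 54 of these 173 overlapping the gene body. Regions near an end were broad, with a median width of 1452 bp, while those beyond 1 kb had a median of 542 bp. For all genes these widths were 1284 and 609 bp. Among near regions called in all 8 libraries, the median was 1538 bp for members and 1552 bp for all genes, so members were not wider there. At 17 of 78 members the strongest end region was assigned to another gene, and at 16 of these 17 it also covered the member's own end, as between NDUFA7 and RPS28, NDUFS1 and EEF1B2, SDHD and TIMM8B, UQCR10 and ZMAT5, and ATP5J and GABPA. GABPA encodes a transcription factor known to act on respiratory chain genes in mammals. A value for such a region belongs to both genes.

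To compare strength without the effect of list length, each of the 49439 regions called in all 8 libraries was ranked within each library by the authors' fold. Rank is given as a percentile, where 100 is the strongest. The strongest end region of each member had a median percentile over libraries of 83.6, with quartiles of 63.6 and 94.2 over 78 genes. The ribosomal protein genes had a median of 52.6 (quartiles 37.6 and 65.6, 83 genes), and all genes had 62.7 (quartiles 36.2 and 83.4, 12645 genes). Of the 78 members, 54 were at or above the 75th percentile, 30 at or above the 90th and 19 at or above the 95th, while 12 were below the 50th. These values are a description, and no test of the list was made.

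**Figure D1:**
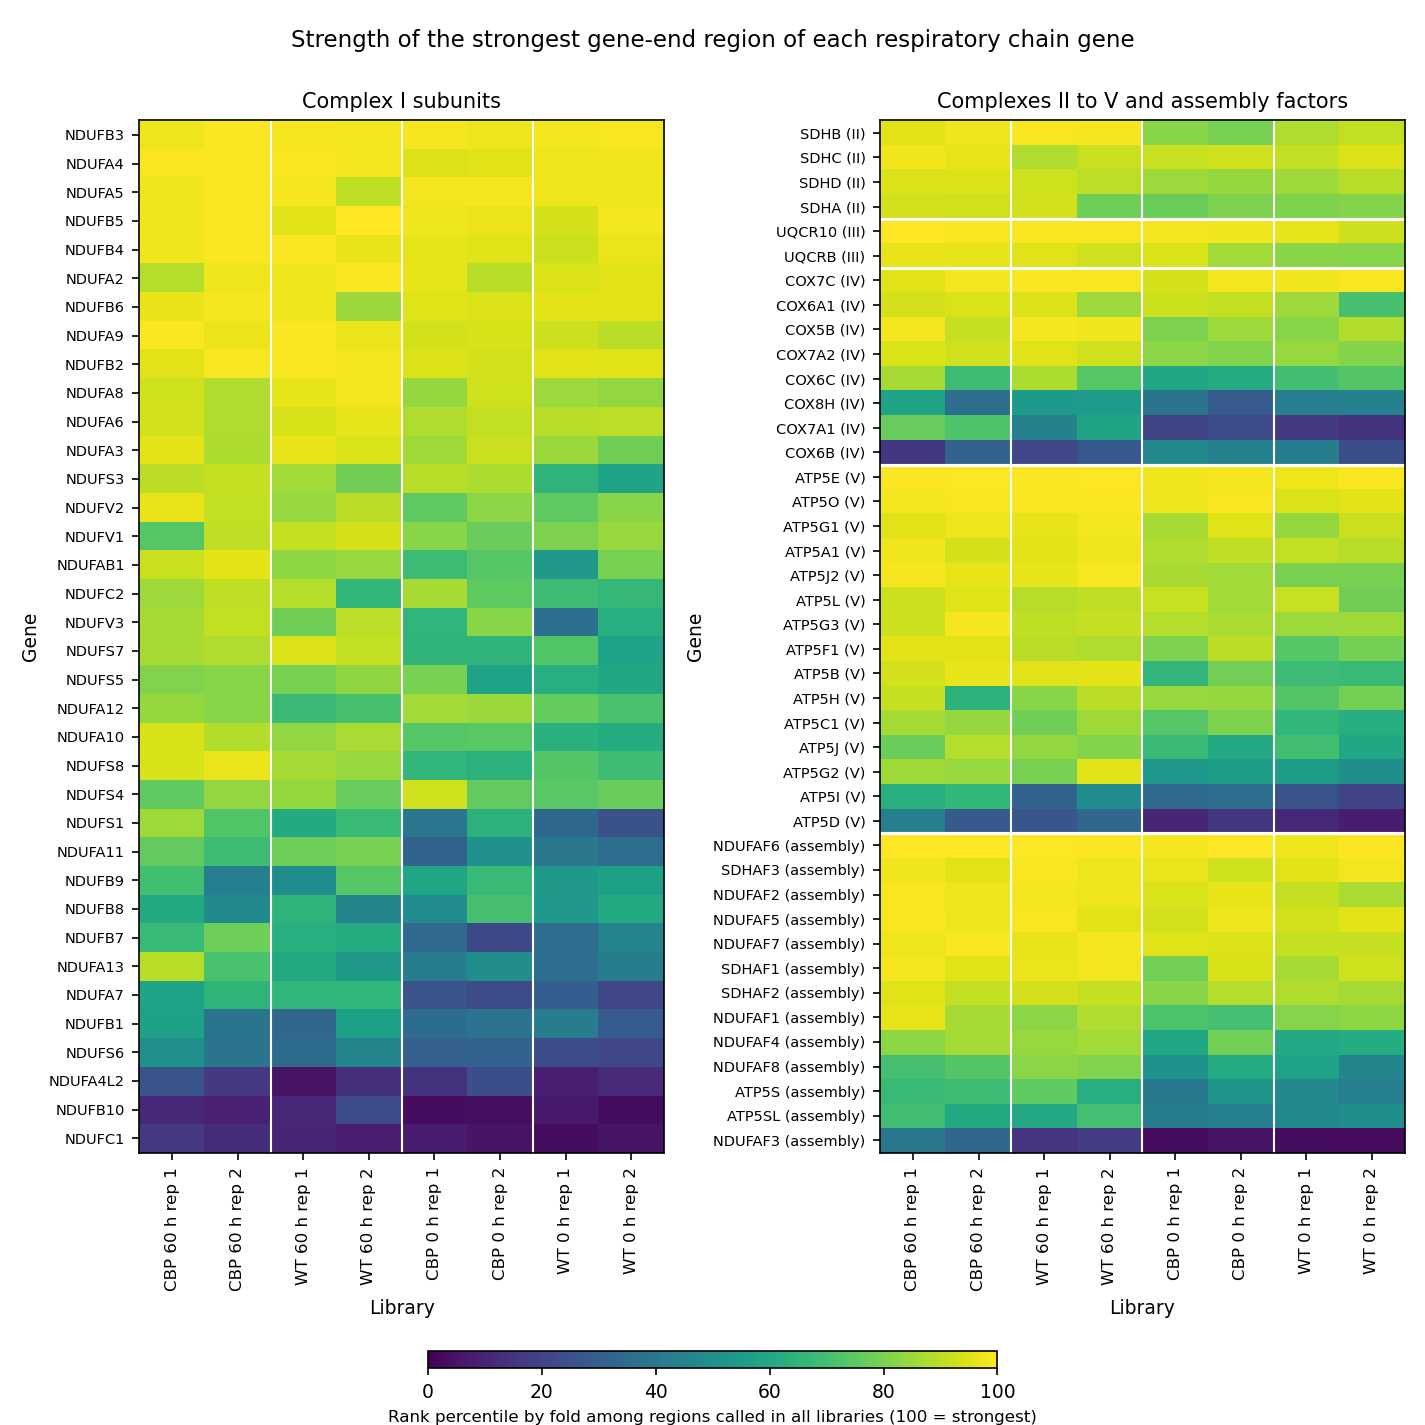
Rank percentile of the strongest end region of each respiratory chain gene (rows) in each library (columns), with complex I on the left and the other complexes and assembly factors on the right. Most rows are bright in all 8 libraries, and a few, such as NDUFC1, NDUFB10 and NDUFAF3, are dark throughout or in the 0 h libraries.

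Strong ends came from every complex, with a highest median percentile of at least 93.4 in each. The lowest was 81.2 in complex II and 93.5 in complex III, so the weak ends came from the other groups. The median percentile was 80.2 for complex I, 91 for complex II, 96 for complex III, 80.1 for complex IV, 88.8 for complex V and 89.9 for the assembly factors. The 5 highest members were NDUFAF6 (99.6), an assembly factor of complex I, ATP5E (99.3), the epsilon subunit of the ATP synthase head, ATP5O (98.6), which joins head and stalk, UQCR10 (98.6), a small subunit of complex III, and NDUFB3 (98.4), an accessory subunit in the membrane arm of complex I. ATP5E lay between 99.5 and 99.9 at 60 h, against 97.4 to 99.2 at 0 h, without overlap, and NDUFB3 between 97.5 and 99.3 at 60 h, against 97.4 to 99 at 0 h, with overlap. The end region of UQCR10 is nearest to ZMAT5 and that of NDUFAF6 to LOC106510020. The 5 lowest were NDUFC1 (8.05) and NDUFB10 (8.23), accessory subunits of complex I, NDUFAF3 (10.2), an assembly factor, NDUFA4L2 (14.1), a paralogue of NDUFA4 known to be induced by hypoxia, and ATP5D (21.5), the delta subunit of the ATP synthase head. For NDUFAF3 the end region is nearest to DALRD3, and for NDUFA4L2 to STAC3. Over members, the range of the percentile across the 8 libraries had a median of 19.9 points and ran between 1.9 and 62.3.

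**Figure D2:**
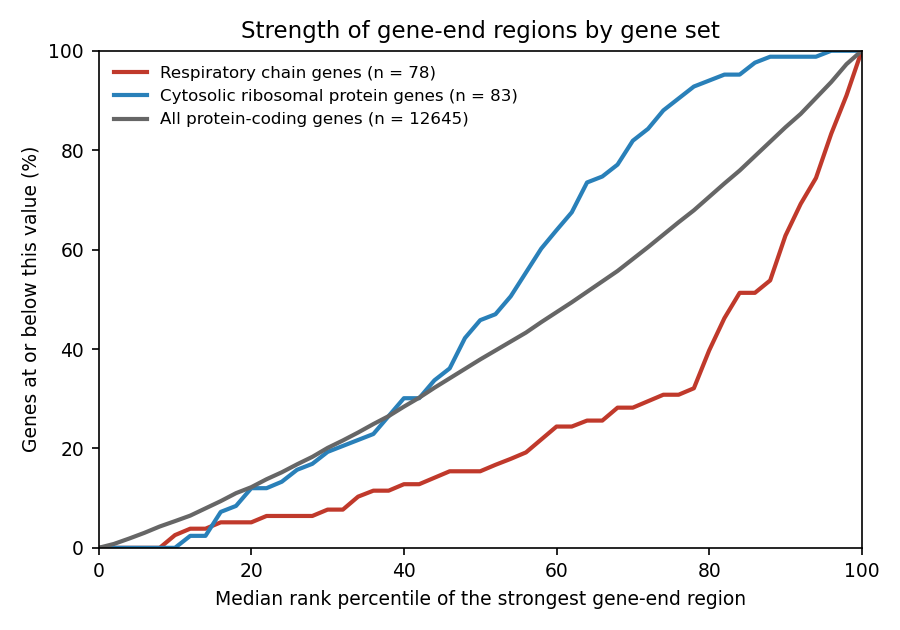
Cumulative share of genes (vertical axis, %) by the median rank percentile of their strongest end region (horizontal axis) for respiratory chain genes, cytosolic ribosomal protein genes and all protein-coding genes. The median was 83.6 for the respiratory chain genes, against 52.6 for the ribosomal protein genes and 62.7 for all genes, and at the low end, at the 10th percentile, the curve of the respiratory chain genes (2.56%) lies above that of the ribosomal protein genes (0%).

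The isoforms of complex IV differed in strength. COX7A1, the subunit 7A isoform of heart and skeletal muscle, had a percentile of 76.9 and 72.4 in CBP 60 h and 44.1 and 58.4 in WT 60 h. It had 20.8 and 23.1 in CBP 0 h and 17 and 14.6 in WT 0 h. COX7A2, the more widely used isoform of the same subunit, had 94.5 and 92.9 in CBP 60 h, 95.3 and 92.9 in WT 60 h, 82.5 and 81 in CBP 0 h and 84.7 and 81.5 in WT 0 h. The muscle isoform was thus the lower one in all 8 libraries, and the distance between the isoforms was smaller in every 60 h library than in any 0 h library. COX8H, the heart and muscle form of subunit 8, had 57.9 and 36.2 in CBP 60 h, 54.6 and 55 in WT 60 h, 38.3 and 28.8 in CBP 0 h and 43 and 44.1 in WT 0 h, and these groups overlap. COX6A1, the non-muscle form of subunit 6A, had a median of 91.4. NDUFA4, named for complex I but now counted with complex IV, had a median of 98.1, against 14.1 for its paralogue NDUFA4L2. The end region that gave the value of NDUFA4L2 is nearest to STAC3. Both paralogues stand under complex I in the counts by complex, which follow the symbols. SDHA had 81.2, at an end shared with CCDC127. Levels are ranks within a library and say nothing of transcript amounts.

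Near the genes, calls differed little between the times, and farther out they were fewer at 60 h. Of the 80 regions within 1 kb, 83.8% and 82.5% were called in CBP 60 h and 83.8% and 85% in WT 60 h, against 90% and 87.5% in CBP 0 h and 86.2% and 93.8% in WT 0 h. Over all genes the near share was 73.6% to 75.4% at 60 h and 84.1% to 89% at 0 h. Of the 173 regions beyond 1 kb, 37.6% and 38.7% were called in CBP 60 h and 42.8% and 39.9% in WT 60 h, against 65.9% and 56.6% in CBP 0 h and 64.2% and 74.6% in WT 0 h. Over all genes the far share was 40.9% to 43.2% at 60 h and 62% to 71.9% at 0 h. With equal peak numbers the farther regions came to 32.4% and 34.7% in CBP 60 h, 41% and 39.9% in WT 60 h, 41.6% and 38.7% in CBP 0 h and 42.2% and 42.8% in WT 0 h. Most of the time difference in calls is thus absent at equal peak numbers, where only the CBP 60 h libraries stand below the others. For all genes the equal-number share beyond 1 kb ranged between 39.8% and 43.1% over the 8 libraries.

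**Figure D3:**
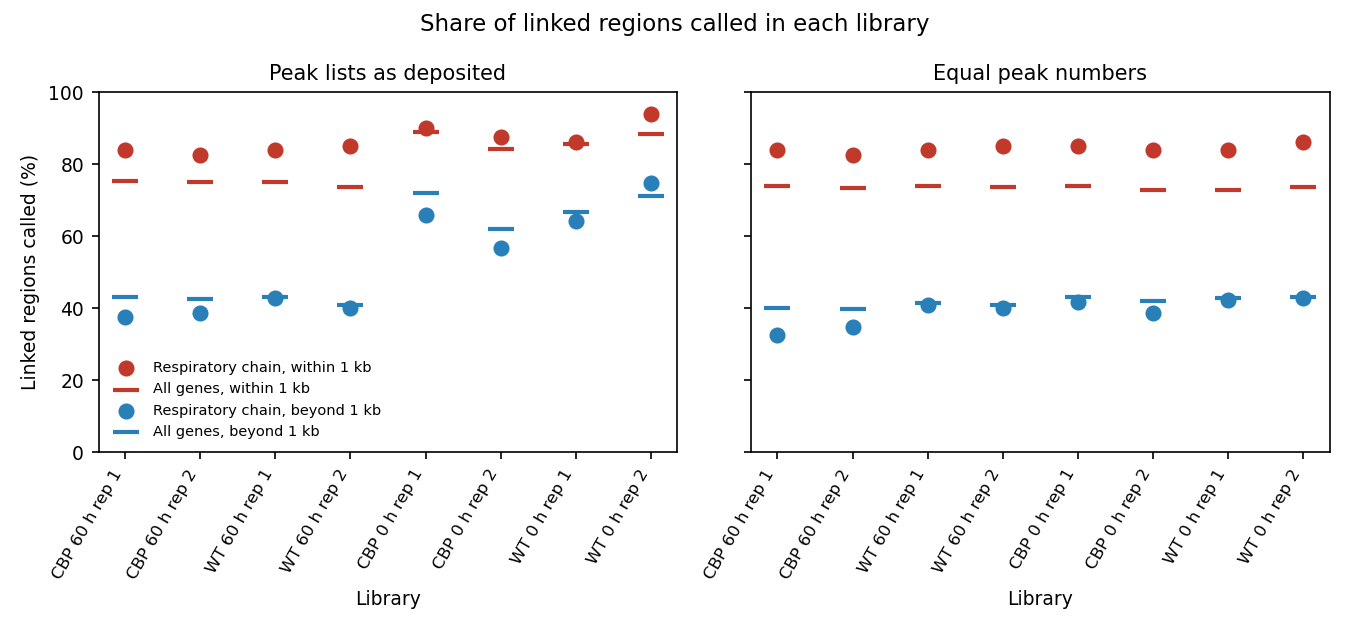
Share of linked regions called in each library (vertical axis, %), for lists as deposited (left) and with equal peak numbers (right). Red marks regions within 1 kb of a gene end and blue those beyond, with circles for respiratory chain genes and dashes for all genes; the blue points are lower at 60 h on the left, and on the right the 2 lowest circles are those of CBP 60 h.

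A region was counted as opened when called in both libraries of the first group named and neither of the second, and as closed in the reverse case. In CBP, 60 h against 0 h, 3 member regions were opened (background over all linked regions 1.37%) and 29 of 253 closed (14.5%). In WT, 60 h against 0 h, 2 were opened (0.572%) and 29 closed (14.3%). The closed share of members was 11.5% in both labels, and the opened share 1.19% in CBP and 0.791% in WT. With equal peak numbers, 4 were opened (3.64%) and 12 closed (5.57%) in CBP, and 8 were opened (2.63%) and 11 closed (3.89%) in WT. The closed shares of members were then 4.74% in CBP and 4.35% in WT, the first below and the second above its background. Of the 29 closed regions of each label, 11 in CBP and 11 in WT were also closed at equal peak numbers. Most closed regions were distant: 25 of the 29 in CBP (15.9% of all regions beyond 1 kb were closed) and 27 of the 29 in WT (15.7%), or 14.5% and 15.6% of the 173 distant member regions. At equal peak numbers 10 distant regions were closed in CBP (6.23%) and 11 in WT (4.31%).

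At gene ends few regions were closed or opened over time. Of the 80 regions within 1 kb, 4 were closed in CBP (background 7.01%) and 2 in WT (7.1%), while 0 were opened in CBP (0.493%) and 1 in WT (0.255%). At equal peak numbers 2 were closed in CBP (2.22%) and 0 in WT (1.75%), and 1 was opened in CBP (2.08%) and 1 in WT (1.85%). Beside the constant end region of NDUFC1, a smaller one 959 bp from the gene was called in neither CBP 60 h library and in both CBP 0 h libraries, with folds of 2.81 and 3.06. A region 957 bp past UQCRB, a complex III subunit that takes part in quinone binding, was called in all 4 libraries at 0 h with folds of 2.96 to 4.96 and in no library at 60 h. A side region of SDHB was closed in CBP, and a region at the far end of COX6B was closed in WT. At NDUFA4L2, the low end of the gene carried a region, at bases 22540617 to 22541328 of chromosome 5 and also close to an end of SHMT2, that was called in no CBP 60 h library. It was called in both WT 60 h libraries, with folds of 3.29 and 3.14, in both CBP 0 h libraries, with 2.67 and 3.47, and in both WT 0 h libraries, with 3.51 and 3.05. The region was missing in CBP 60 h also with equal peak numbers. The opened region, at the low end of ATP5A1, which encodes the alpha subunit of ATP synthase, was called in WT 60 h alone, with folds of 4.41 and 4.42. The strongest end of ATP5A1, at the other side, was called in all 8 libraries.

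The region called in every 60 h and no 0 h library lay within NDUFS4, which encodes an accessory subunit of complex I whose loss causes Leigh syndrome in humans. A region inside the gene, 7581 bp from its low end at bases 32881999 to 32882626 of chromosome 16, had folds of 4.19 and 4.46 in CBP 60 h and 6.04 and 3.74 in WT 60 h, and no peak in any 0 h library. It was 1 of 253 member regions with this pattern, against a background of 0.108%, and at equal peak numbers 2 regions had it (0.69%). With only peaks of −log10 q of at least 5, or with a call only where peaks cover 50% of the region, 0 member regions had it. The −log10 q was 4.71 in CBP 60 h replicate 1 and 3.29 in WT 60 h replicate 2. The reverse pattern, a call in every 0 h and no 60 h library, held for 10 member regions (3.95%, background 5.47%). These included 4 around NDUFS4 itself, and 1 each at NDUFB7, UQCRB, SDHB, ATP5L, NDUFB4 and NDUFAF2. At equal peak numbers it held for 4 (1.28%), linked to NDUFB7, NDUFB4, NDUFS4 and NDUFAF2. The region inside NDUFS4 among these, at bases 32938297 to 32939611, had folds of 8.05 and 7.18 in CBP 0 h and 8.48 and 6.81 in WT 0 h. The end region of NDUFS4 was called in all 8 libraries, so the changes lie away from the gene end.

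**Figure D4:**
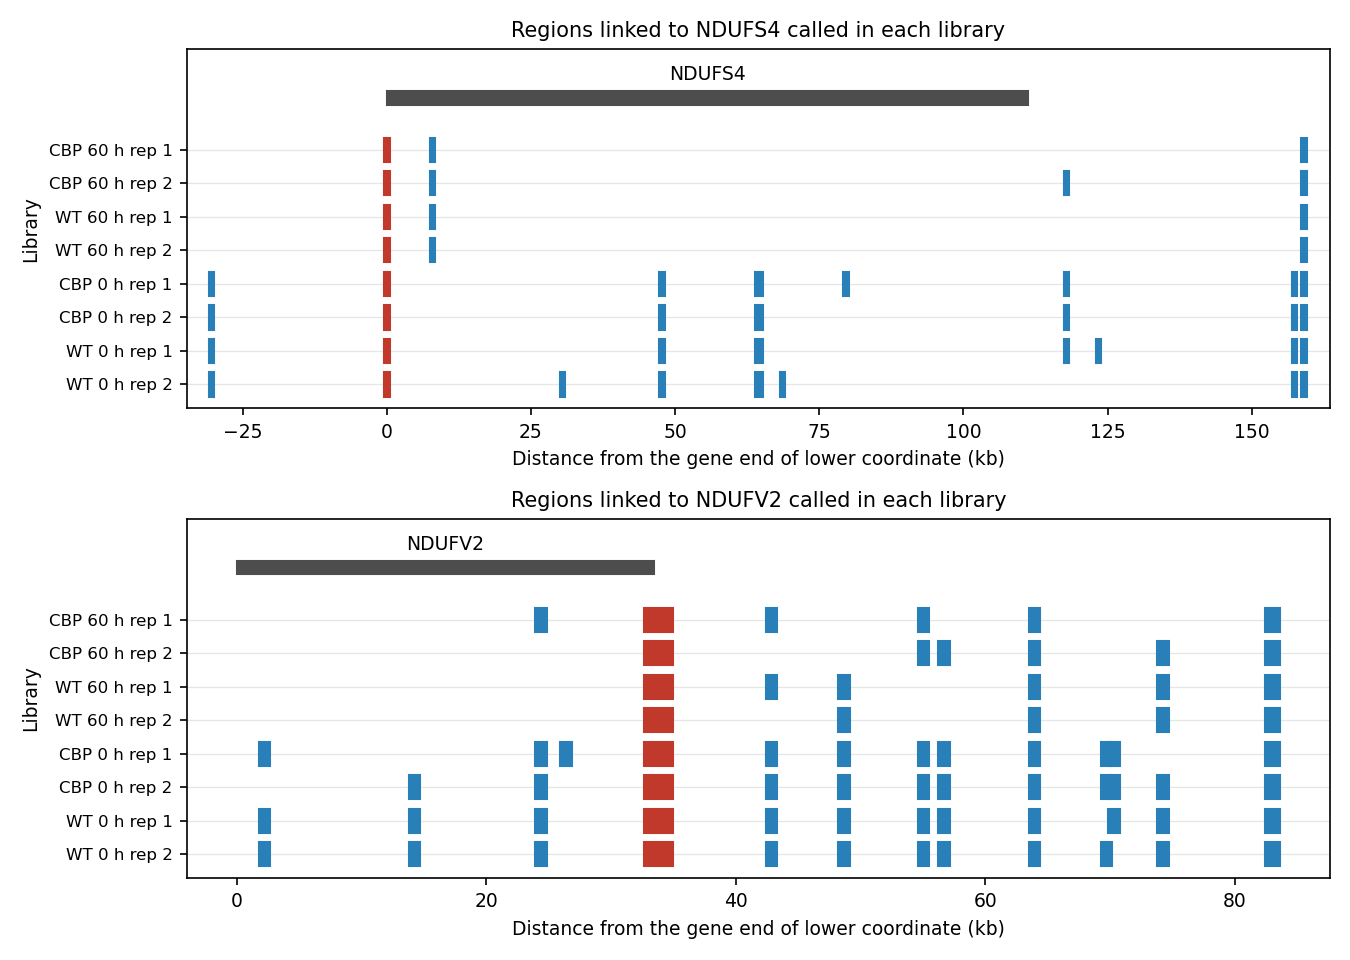
Regions linked to NDUFS4 (top) and NDUFV2 (bottom) called in each library, by distance from the gene end of lower coordinate (kb); red marks regions within 1 kb of a gene end, blue the others, the grey bar is the gene, and regions narrower than 0.9 kb are drawn 0.9 kb wide. The red end regions are present in all 8 rows, the NDUFS4 region 7581 bp inside the gene only in the 60 h rows, and some other regions linked to NDUFS4 only in 0 h rows.

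An exact two-sided permutation test of calls over the 8 libraries, 60 h against 0 h, gave its smallest possible p of 0.0286 for 11 member regions, the 10 and the 1 above. After Benjamini-Hochberg adjustment over all 174090 regions, 0 member regions and 0 regions in all passed, with a smallest adjusted p of 0.492. Unadjusted, 10112 regions had a p under 0.05. With 8 libraries p cannot go lower, so regions could pass only if most of them reached this p. The adjusted result therefore cannot decide whether single regions changed.

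Among regions called in all libraries, member ends gained rank with time. The ranks of the 49439 common regions were turned into normal scores, and groups were compared with limma over all of them, with Benjamini-Hochberg adjustment and a threshold of 0.05. The score difference is in standard deviations of the rank scale, and it could be given for the 102 of 253 member regions called in all 8 libraries (background 31.9%). Of these, 64 lay near an end (65.9%) and 38 farther out (25.2%). Over both labels, 60 h against 0 h, 33 member regions were higher (background 19%) and 4 lower (15.2%). Near gene ends 31 of 64 were higher, or 48.4%, against 41.1% of all such regions and 88.3% of those of ribosomal protein genes, and 0 were lower (3.17%). Farther out 2 of 38 were higher and 4 lower, against 13.2% and 16.9% of all such regions. The rise of near regions is thus shared with gene ends at large, and the median score difference was 0.51 for members, 0.45 for all near regions and 1.05 for those of ribosomal protein genes. Peak number moves with time too, and its part was not tested. When regions were ranked by −log10 p instead, 14 member regions were higher (background 12.9%), 9 of them near ends (14.1%, against 17.2% of all near regions). The count of 33 fell when any 1 library was left out, most without either WT 0 h library or without CBP 0 h replicate 1. The share of all regions that passed as higher fell each time as well. The count of 4 fell when any 1 library was left out except CBP 60 h replicate 1, without which it rose. The share of all regions that passed as lower fell each time.

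Within a label fewer regions passed. In CBP, 11 member regions were higher (background 8.92%) and 2 lower (9.08%), and in WT 7 were higher (4%) and 0 lower (4.77%). Of all regions within 1 kb of a gene end, 17.3% were higher in CBP and 9.43% in WT. Ranked by −log10 p, 3 were higher in CBP (7.62%) and 0 in WT (2.71%). These counts depend on single libraries, as do those over all regions. Without any 1 library of a label, the count of members higher and the share of all regions higher both fell in that label. Leaving out a 0 h library of the other label lowered both as well. A group left with 1 library limits the test, so the fall is not particular to members. The 7 of WT, all among the 64 member regions near an end, were the ends of ATP5B, ATP5J2, NDUFA11, SDHB, COX7A1, NDUFS7 and ATP5G2. Taken by gene, the strongest end region was higher at 60 h over both labels in 38 of 78 members, and the difference was above 0 in 72. Of all near regions, 41.1% were higher and 82.1% had a difference above 0. These shares count every near region and not the strongest end of each gene, so the measures are not the same. By complex, the strongest end was higher in 14 of 36 genes in complex I, 1 of 4 in complex II and 2 of 2 in complex III. It was higher in 3 of 8 in complex IV, 10 of 15 in complex V and 8 of 13 assembly factors.

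**Figure D5:**
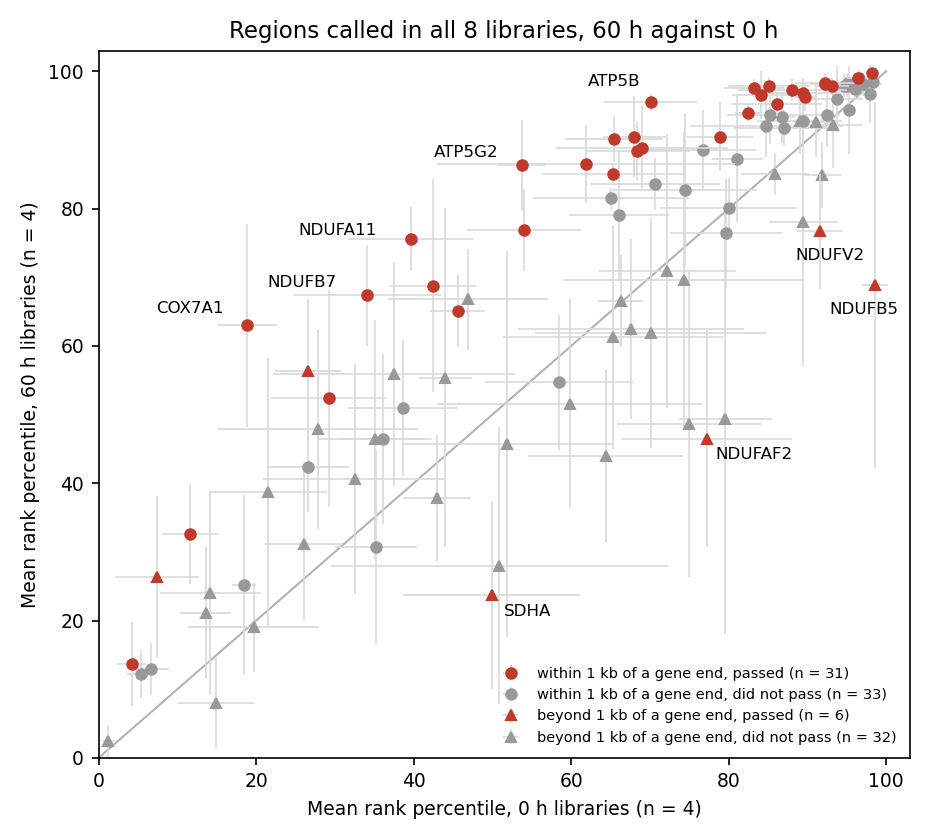
Mean rank percentile of each of the 102 member regions called in all libraries at 60 h (vertical axis) and at 0 h (horizontal axis), with SD over 4 libraries; red marks regions that passed the limma test, circles lie within 1 kb of a gene end and triangles beyond, and the grey line marks equal rank. Red circles lie above the line, with COX7A1 farthest from it, and NDUFB5, NDUFAF2, NDUFV2 and SDHA are red triangles below it.

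Among the higher regions COX7A1 had the lowest adjusted p. Its end region, at bases 45519452 to 45521358 of chromosome 6, had authors' folds of 7.3 and 7.29 in CBP 60 h and 5.73 and 6.3 in WT 60 h, against 4.6 and 4.83 in CBP 0 h and 4.43 and 4.1 in WT 0 h. Its percentile averaged 63 ± 14.8 at 60 h and 18.9 ± 3.8 at 0 h, without overlap (SD over 4 libraries). The score difference was 1.24 (SE 0.17, adjusted p = 0.00161), and it passed in all 14 alternatives run. The region also lies within 1 kb of ends of CAPNS1 and ZNF146, so it cannot be assigned to COX7A1 alone. COX5B, another nuclear-encoded subunit of the complex, averaged 96.5 ± 3.48 at 60 h, against 84.1 ± 3.63 at 0 h (n = 4 each, SD). Its difference was 0.91 (SE 0.21, adjusted p = 0.00914), and 0.36 with an adjusted p of 0.166 when ranked by −log10 p.

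In complex V, ATP5B, the catalytic beta subunit, had percentiles of 93.7 and 96.6 in CBP 60 h and 95.6 and 95.9 in WT 60 h, against 65.8 and 78.9 in CBP 0 h and 68.5 and 67.4 in WT 0 h. All 60 h libraries exceeded all 0 h libraries, and the score difference was 1.17 (SE 0.18, adjusted p = 0.00206). ATP5G2, one of the genes for the proton-carrying subunit c, averaged 86.3 ± 6.65 at 60 h, against 53.7 ± 2.96 at 0 h (n = 4 each, SD), a difference of 1.05 (SE 0.21, adjusted p = 0.00558). ATP5J2, which encodes a subunit of the membrane part, averaged 97.6 ± 1.33 at 60 h, against 83.2 ± 3.78 at 0 h (n = 4 each, SD), a difference of 1.05 (SE 0.19, adjusted p = 0.00361). Its direction depends on the measure, since ranking by −log10 p gave −0.06 over both labels (adjusted p = 0.798). ATP5J, a coupling subunit, shares its end with GABPA, and that region averaged 82.9 ± 4.68 at 60 h, against 64.2 ± 5.19 at 0 h (n = 4 each, SD, difference 0.60, adjusted p = 0.03). ATP5D stayed among the weak ends but passed, with 32.6 ± 7.24 at 60 h, against 11.6 ± 3.52 at 0 h (n = 4 each, SD, adjusted p = 0.0118).

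In complex II, SDHB, the iron-sulfur subunit, had 96 and 97.7 in CBP 60 h and 98.9 and 98.8 in WT 60 h, against 82.4 and 79.3 in CBP 0 h and 87.9 and 90.8 in WT 0 h. The times do not overlap, and the difference was 1.01 (SE 0.17, adjusted p = 0.00284), or 0.34 with an adjusted p of 0.176 when ranked by −log10 p. The strongest ends of SDHA, SDHC and SDHD had differences of 0.45, 0.16 and 0.41, with adjusted p of 0.0955, 0.494 and 0.0792. In complex III, UQCR10 and UQCRB passed, UQCR10 with 99.4 ± 0.338 at 60 h, against 96.1 ± 2.6 at 0 h, and UQCRB with 95.2 ± 1.72 at 60 h, against 86.1 ± 5.76 at 0 h (n = 4 each, SD).

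In complex I the core iron-sulfur subunits NDUFS1, NDUFS7 and NDUFS8 passed. NDUFS8 had percentiles of 94.1 and 96.9 in CBP 60 h and 86.4 and 84.7 in WT 60 h, against 65.8 and 64.3 in CBP 0 h and 73.4 and 68.8 in WT 0 h. The difference was 0.92 (SE 0.17, adjusted p = 0.00422), and the region lies close to an end of ALDH3B1 as well. NDUFS7 averaged 90.1 ± 3.33 at 60 h, against 65.4 ± 6.12 at 0 h (n = 4 each, SD, difference 0.91, adjusted p = 0.00527). Ranked by −log10 p, neither passed, with adjusted p of 0.0917 for NDUFS8 and 0.115 for NDUFS7. NDUFA11, an accessory subunit of the membrane arm, averaged 75.6 ± 4.67 at 60 h, against 39.6 ± 8 at 0 h (n = 4 each, SD, difference 0.97, adjusted p = 0.00445). It passed in all alternatives run, with adjusted p between 0.00298 and 0.0237. NDUFB7, on the intermembrane face of that arm, averaged 67.4 ± 7.34 at 60 h, against 34.1 ± 9.39 at 0 h (n = 4 each, SD, difference 0.88, adjusted p = 0.00628), and did not pass when ranked by −log10 p (0.0815). Of the other core subunits, NDUFS1, at an end shared with EEF1B2, passed with 0.86 (adjusted p = 0.0117) and NDUFV2 with 0.56 (0.0452), while NDUFV1 had 0.32 (0.227) and NDUFS3 0.37 (0.115). NDUFA12, NDUFB8, NDUFB9, NDUFS4 and NDUFA5 had differences at or just below 0, the lowest being −0.11 at NDUFA12. Within CBP, NDUFA4, NDUFA13, NDUFAB1, the mitochondrial acyl carrier protein, and the assembly factor NDUFAF1 were also among the 11 higher regions, with adjusted p of 0.0219, 0.0337, 0.0362 and 0.0437.

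The regions that lost rank all lay beyond 1 kb. A region 6689 bp past the high end of NDUFB5, a membrane-arm subunit of complex I, spans bases 117678204 to 117679264 of chromosome 13. It had percentiles of 44.2 and 47.6 in CBP 60 h and 89.2 and 94.6 in WT 60 h, against 99.7 and 98.6 in CBP 0 h and 96.3 and 99.8 in WT 0 h. It was thus among the strongest regions in every 0 h library and near the middle in CBP 60 h alone. Over both labels the difference was −1.76 (SE 0.26, adjusted p = 0.00187), and it passed in all 14 alternatives run. In CBP it was −2.60 (SE 0.36, adjusted p = 0.00422), also in all 14, and in WT −0.91 (SE 0.36, adjusted p = 0.123). The difference between these time changes, −1.69 (SE 0.51), had an adjusted p of 0.271, so a label-dependent change was not shown. The end region of NDUFB5 itself had 98 and 99.6 in CBP 60 h, 95.4 and 99.7 in WT 60 h, 97.3 and 96.9 in CBP 0 h and 93.6 and 98.2 in WT 0 h, and did not pass (adjusted p = 0.216). A region inside NDUFAF2, which helps to assemble complex I, 7925 bp from its end, had 46.5 ± 15.8 at 60 h, against 77.2 ± 10.9 at 0 h (n = 4 each, SD, difference −0.88, adjusted p = 0.0233). Its call was lost without any of 4 libraries in turn, with adjusted p of 0.0649 to 0.0931, and when ranked by −log10 p (0.351). A region 30116 bp from NDUFV2 (difference −0.65, adjusted p = 0.031) and one inside SDHA (difference −0.80, adjusted p = 0.0366) lost their calls in 8 and 7 of the alternatives.

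Between CBP and WT at 60 h, 8 member regions were opened (background 3.15%) and 8 closed (3.17%). At equal peak numbers 4 were opened (2.77%), all of them among the 8, and 10 closed (3.45%), which took in the 8. Both shares are near the background. Among the opened were a region 37154 bp from COX5B and one 5361 bp from COX6A1, each called in every library but those of WT 60 h. The COX5B region had folds of 4.45 and 3.77 in CBP 60 h, 5.15 and 4.76 in CBP 0 h and 4.32 and 4.13 in WT 0 h. Among the closed, distant regions of NDUFV2, NDUFB3 and the assembly factor NDUFAF5, as well as the NDUFA4L2 end region above, were called in every library but those of CBP 60 h, and this held at equal peak numbers for all 4. The NDUFB3 region, 43013 bp from the gene, had folds of 7.06 and 6.13 in WT 60 h, 5.16 and 6.1 in CBP 0 h and 7.48 and 6.74 in WT 0 h. Beside NDUFV2, a core flavoprotein subunit of complex I with 14 linked regions, neighbouring regions differed in opposite ways. The one 14832 bp away had no peak in CBP 60 h and folds of 6.25 and 5.33 in WT 60 h, while the one 21248 bp away had folds of 3.67 and 5.97 in CBP 60 h and no peak in WT 60 h. At equal peak numbers the first of these patterns held. At 0 h, 1 was opened (2.24%) and 9 closed (3.35%), and at equal peak numbers 0 were opened (1.85%) and 5 closed (2.35%), 1 of which was among the 9.

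A region 4627 bp from NDUFB4, a membrane-arm subunit of complex I, was called in every CBP and no WT library (1 of 253, background 0.142%), and 0 showed the reverse (0.234%). Its folds were 3.29 and 3.24 in CBP 60 h and 3.51 and 3.45 in CBP 0 h, with −log10 q of 2.39 to 4.52. The pattern was lost at equal peak numbers. Its exact permutation p was 0.0286, the smallest possible, and 0 of 174090 regions passed after adjustment (smallest adjusted p = 1). This adjusted result cannot decide either, since the smallest p is too high to pass unless most regions reach it.

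By rank, few differences between the labels passed at member regions. In CBP against WT at 60 h, limma found 0 higher (background 1.49%) and 1 lower (1.97%). That was the distant NDUFB5 region, with 44.2 and 47.6 in CBP 60 h and 89.2 and 94.6 in WT 60 h (difference −1.52, SE 0.36, adjusted p = 0.0486). This call was lost in 7 of 14 alternatives, which were the replicate block (adjusted p = 0.0559) and the fits without any 1 of the WT 60 h (0.0848 and 0.149), CBP 0 h (0.0713 for each) or CBP 60 h (0.129 and 0.113) libraries. At unadjusted p under 0.05, 10 member regions were higher and 2 lower, beside 10.3% and 10.8% of all regions. At 0 h, 0 member regions were higher or lower (background 0% for both), and 0 at unadjusted p under 0.05, beside 3.17% and 3.89% of all regions. Ranked by −log10 p there were also 0 higher (0%) and 0 lower (0.00607%), with 2 and 1 unadjusted (4.61% and 6.1% of all regions). Over both times, 0 were higher (0.518%) and 0 lower (0.829%), with 10 and 3 unadjusted (8.67% and 9.28%). Ranked by −log10 p, 0 passed over both times, with 8 and 4 unadjusted (10.6% and 11.8%). The time change differed between the labels at 0 member regions (background 0%), with 2 and 1 unadjusted (5.48% and 5.66%). These counts do not show that the labels act alike, since 2 libraries a group limit what the test can find. The median score difference of near regions was 0.01 at 60 h, against 0.07 for all near regions, and 0.08 at 0 h, against 0.04.

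Other genes of the pathway were taken from lists chosen with earlier results of these data known. Of the listed symbols, 4 of 6 carriers and other subunits, 19 of 37 assembly factors, 15 of 15 citric acid cycle genes and 15 of 15 regulators matched. The counts below stand beside 19% higher and 15.2% lower of all regions tested, and 41.1% and 3.17% of those near ends. Over both labels, 60 h against 0 h, the carriers and other subunits had 3 regions higher and 1 lower of 4 tested. The higher ones were the ends of CYCS, the cytochrome c that carries electrons to complex IV, and of ETFA and ETFB, which carry electrons from fatty acid oxidation. CYCS averaged 95.4 ± 1.53 at 60 h, against 85.6 ± 2.94 at 0 h (n = 4 each, SD, adjusted p = 0.0203). Further assembly factors had 11 higher and 1 lower of 26, among them SCO2, which delivers copper to complex IV, with 55 ± 8.4 at 60 h, against 20.3 ± 5.65 at 0 h (n = 4 each, SD, adjusted p = 0.00422). Genes of the citric acid cycle, which feeds the chain, had 11 higher and 6 lower of 41. Known regulators of respiratory genes had 11 higher and 4 lower of 32. Their higher regions included the ends of ESRRA, NRF1, POLRMT, TFB1M and PPRC1. NRF1, a transcription factor of many respiratory genes, averaged 49.8 ± 4.04 at its end at 60 h, against 21.4 ± 3.11 at 0 h (n = 4 each, SD, adjusted p = 0.00731). Of its distant regions, one 24971 bp away also rose (difference 0.76, adjusted p = 0.0155) and one 7089 bp away fell (difference −0.69, adjusted p = 0.0221). PPARGC1B, a coactivator of mitochondrial genes, rose at its end yet stayed weak, with 13.9 ± 3.88 at 60 h, against 2.27 ± 1.37 at 0 h (n = 4 each, SD, adjusted p = 0.00551). A region 48273 bp from GABPA fell, with 49.5 ± 5.9 at 60 h, against 98 ± 1.62 at 0 h (n = 4 each, SD, difference −2.14, adjusted p = 0.000495), while the end that GABPA shares with ATP5J rose.

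Between CBP and WT at 60 h, a region 4959 bp from ETFA was lower, with 22 ± 8.64 in CBP and 80.3 ± 4.6 in WT (SD, n = 2 each, difference −1.65, adjusted p = 0.017). Of the citric acid cycle regions, one 38627 bp from SUCLA2 was lower, with 40.6 ± 0.682 in CBP and 88.6 ± 11.8 in WT (SD, n = 2 each, difference −1.60, adjusted p = 0.0336). One 15353 bp from SUCLG2 was higher, with 72.2 ± 8.16 in CBP and 11.3 ± 3.13 in WT (SD, n = 2 each, difference 1.81, adjusted p = 0.0198), and one 30870 bp from FH was higher, with 40.8 and 47.4 in the CBP libraries and 9.82 and 12.4 in the WT libraries (difference 1.07, adjusted p = 0.0416). SUCLA2 and SUCLG2 encode alternative subunits of succinyl-CoA ligase that use ADP and GDP, and FH encodes fumarase. All 4 regions lie beyond 1 kb, and 0 regions of the further assembly factors or regulators passed in this comparison. Thus 1 of 4 regions of the carriers was lower, and of 41 citric acid cycle regions 2 were higher and 1 lower. Of all regions tested, 1.49% were higher and 1.97% lower. These calls rest on 2 libraries a group, and no alternatives are given for them.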

How the data were processed

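ATAC-seq was run on 8 libraries of porcine muscle satellite cells. The submitters' processing notes name Trimmomatic, a read trimmer, MACS2 2.1.0, a peak caller, and the build Sscrofa11.1. Which aligner was run, and how duplicates, mitochondrial reads and transposase offset were handled, is not given in the sources used here and could alter peak height and edges. The deposited lists, called per library, give each peak an integer score, a fold enrichment (a ratio over local background), a −log10 p-value, a −log10 q-value and a summit offset, all the authors' own values. The score was not used.

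Peaks on chromosomes 1 to 18 were merged at 1 bp overlap and linked to the nearest protein-coding gene end within 50 kb. A region was called in a library when a peak overlapped it. The end measure that counts a region whichever gene is nearest was chosen after the data were seen. Members, lists and tests were chosen with earlier results of these data known. The authors' fold was used only as a rank within each list over 49439 common regions. Normal scores were fitted with limma 3.58.1 in R 4.3.3, 4 groups sharing 1 spread, with Benjamini-Hochberg adjustment and a threshold of 0.05. The fold carries a pseudocount in the peak caller, so depth may still act on ranks, which was not tested. The fit was tested on simulated data. Calls were tested with an exact permutation test in Python 3.11.15. Named genes were those with a near-end region opened or closed, the 10 lowest adjusted p per direction, the 5 strongest and 5 weakest ends, isoform pairs, and distant regions switched in both labels or both times; others were named after their values were seen. Of the isoforms, those without an entry under the rule are not analysed here. Alternatives were equal peak numbers, a −log10 q of at least 5, 50% cover, ranks by −log10 p, rank percentiles, quantile-normalised log2 of the authors' fold, a replicate block and leaving out each library. Correlations of the replicate deviations between groups were −0.0067 to 0.00634. They show no pairing by replicate number but cannot exclude a shared source, on which the labels are silent. No genome sequence was used, so the planned motif search was not run. Values of 1 member and of 1 marker list are not reported here.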

Additional observations from a re-analysis of the deposited data

How the results depend on the processing

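Of the counts of opened and closed regions, equal peak numbers gave 8 opened and 11 closed in WT over time, 12 closed in CBP over time, 0 opened and 5 closed in CBP against WT at 0 h and 4 opened at 60 h. A −log10 q of at least 5 gave 0 opened in WT (background 0.328%) and 1 in CBP (0.819%) over time, and 4 opened in CBP against WT at 60 h (2.36%). With 50% cover, 1 was opened in WT over time (0.623%) and 3 in CBP against WT at 0 h (2.92%). Ranking by −log10 p gave 0 higher in WT, 3 in CBP and 14 over both labels, and turned ATP5J2 to −0.21 in CBP (adjusted p = 0.549) and −0.06 over both labels (0.798). The lower count in CBP over time was 1 with rank percentiles, with quantile-normalised log2 fold and with −log10 q of at least 5, and that of CBP against WT over both times was 1 with rank percentiles. The cause of these shifts was not tested.

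With the replicate number as a block, 30 regions were higher and 5 lower over both labels, and the NDUFB5 call of CBP against WT at 60 h fell to 0 (adjusted p = 0.0559). The exact call test within replicate numbers cannot go below p = 0.0556 and passed 0. The block changed no other count of calls by more than 1.5 times.

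Leaving out 1 library at a time, so that its group had 1, gave 2 to 7 opened and 34 to 62 closed in WT over time, and 4 to 7 and 36 to 53 in CBP. It gave 5 to 13 and 13 to 31 in CBP against WT at 0 h, and 10 to 15 and 12 to 19 at 60 h. A group of 1 library meets the rule for opened and closed more easily, so these counts cannot fall below those of full groups. The share of all regions is not given beside them, so they are not a result about members. The rank test then gave 0 to 9 higher in WT, 0 to 16 higher and 1 to 3 lower in CBP, 15 to 32 higher and 1 to 6 lower over both labels, and 0 to 1 lower in CBP against WT at 60 h, while the other rank counts were 0 to 0. A lone library was assumed to vary like the other groups. Rank counts over all regions also changed with the library left out, so these shifts are not particular to members. Of the values of single named regions, 336 kept direction and call, 136 kept direction alone and 2 reversed. The number of libraries, 2 a group, and unknown read depth limit all counts.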
